A study of Mus musculus with 6 samples.

Results

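The enzymes that carry the sterol from lanosterol to cholesterol are encoded by 9 genes, taken here in the order of the pathway as Lss, Cyp51, Tm7sf2, Msmo1, Nsdhl, Hsd17b7, Ebp, Sc5d and Dhcr7. They were named by gene symbol from the known biochemistry, with earlier results of these data known. All 9 were found among the 45777 genes of the count table and passed the filter on low counts that left 17274 genes. Their transcripts were measured by RNA sequencing in livers of 3 LT mice and 3 Fpn-LKO mice on the HFD, a diet rich in fat, with 1 library per mouse. All mice were males on the C57BL/6 background. LT mice were littermates homozygous for the floxed ferroportin allele (Fpn flox/flox) without Cre, and Fpn-LKO mice carried the same floxed alleles together with Alb-Cre. Both groups thus carry the floxed allele and eat the same diet, and the groups differ by Cre, which the albumin promoter drives. The study describes the deletion as specific to hepatocytes. Ferroportin, encoded by Slc40a1, is the protein through which cells export iron. The titles and library names of the 6 libraries name no batch.

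Cholesterol is built in the endoplasmic reticulum from acetyl-CoA, by way of mevalonate, isoprenoid units and squalene, and the first sterol ring system appears when Lss closes the epoxide of squalene to give lanosterol. The later enzymes remove the surplus methyl groups of lanosterol and then move and reduce its ring double bonds. Some of them need iron, since Cyp51 is a haem-containing cytochrome P450, while Msmo1 and Sc5d are oxygen-dependent enzymes with a non-haem iron centre. In the liver these genes are classic targets of the transcription factor SREBP-2, encoded by Srebf2, which leaves the endoplasmic reticulum when membrane cholesterol is low and which works with NF-Y and Sp1 bound nearby.

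The sequences before the transcript starts of the members were taken from the RefSeq table of mouse build GRCm38.p6, which held 11 windows of 250 bases for the 9 genes, 1 per gene but 3 for Dhcr7. Windows of 4 members are shown, 2 whose levels did not overlap between the genotypes (Msmo1 and Cyp51) and 2 later in the pathway whose levels did (Ebp and Sc5d). The coordinates are chr8:64733579-64733828 (minus strand) for Msmo1, chr5:4104698-4104947 (minus strand) for Cyp51, chrX:8193513-8193762 (minus strand) for Ebp and chr9:42264301-42264550 (minus strand) for Sc5d. Each is printed on the strand of its gene, 5′ to 3′ and ending at the base before the start, and capitals mark CCAAT or its reverse complement ATTGG, the motif that NF-Y binds.
Msmo1: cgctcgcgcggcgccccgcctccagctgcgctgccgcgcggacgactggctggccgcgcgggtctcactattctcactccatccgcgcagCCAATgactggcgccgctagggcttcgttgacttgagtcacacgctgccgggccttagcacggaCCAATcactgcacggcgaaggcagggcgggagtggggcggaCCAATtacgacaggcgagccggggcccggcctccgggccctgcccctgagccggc
Cyp51: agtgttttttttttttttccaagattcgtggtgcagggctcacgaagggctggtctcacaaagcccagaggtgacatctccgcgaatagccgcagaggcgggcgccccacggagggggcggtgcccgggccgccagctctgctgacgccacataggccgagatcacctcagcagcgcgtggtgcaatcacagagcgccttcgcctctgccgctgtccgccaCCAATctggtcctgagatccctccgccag
Ebp: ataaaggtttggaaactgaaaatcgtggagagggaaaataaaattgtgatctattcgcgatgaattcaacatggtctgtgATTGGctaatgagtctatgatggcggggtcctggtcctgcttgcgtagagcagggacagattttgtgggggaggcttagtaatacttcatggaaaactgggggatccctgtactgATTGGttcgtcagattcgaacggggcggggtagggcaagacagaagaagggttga
Sc5d: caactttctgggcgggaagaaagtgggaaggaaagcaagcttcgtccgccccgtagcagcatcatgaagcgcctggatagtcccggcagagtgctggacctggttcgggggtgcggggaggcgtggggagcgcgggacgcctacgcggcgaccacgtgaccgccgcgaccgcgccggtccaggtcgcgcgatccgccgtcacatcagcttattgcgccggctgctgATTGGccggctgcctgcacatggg

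The 4 windows share short motifs rather than a common sequence, and the windows of the members with and without a difference in level both hold CCAAT. Searched on either strand, CCAAT was present in at least 1 window of all 9 members. Dhcr7 had it only before its start furthest into the gene. Over all 32851 promoter windows of the same length, 33.8% held it. GGGCGG, the core of a GC box to which Sp1 binds, was found in a window of 9 of 9 members and in 32.7% of all windows. Both motifs occurred together in a window of each of the 9 members, and in 11.01% of all windows. Counted by window, as the shares over all windows are, CCAAT was in 9 of the 11 member windows, GGGCGG in 10 and both in 9. The letters TCACNCCAC, a form of the sterol response element with 1 free base, were in none of the 11 windows and in 1.05% of all windows. Other forms of the element were not searched, so this does not show that the windows lack it. The windows of the members were richer in G and C than the rest, with a median of 63.2% against 52.4%, and the motifs were chosen after the expression values were seen. Msmo1 and Hsd17b7 each had 3 matches to CCAAT, Nsdhl and Ebp 2, and Lss, Cyp51, Tm7sf2 and Sc5d 1, so Ebp had more matches than Lss or Cyp51. A match is a stretch of letters, and binding was not measured. For Lss and Hsd17b7 the start in this table lies inside the gene as annotated, so their windows reach into the gene.

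**Figure D1:**
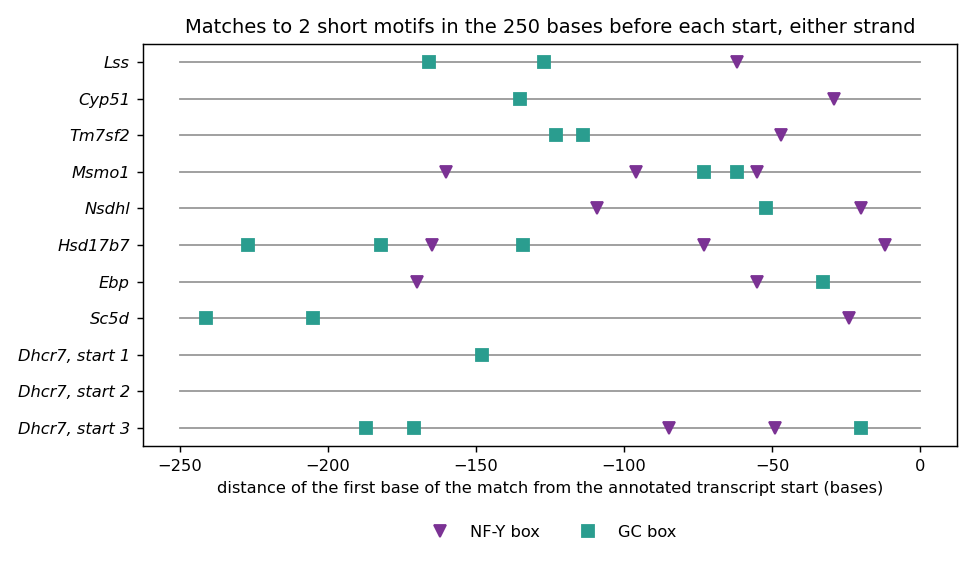
Positions of the matches to the NF-Y motif (triangles) and to the GC box (squares) in the 11 windows of 250 bases before the transcript starts of the 9 members, on either strand, with the distance of the first matching base from the start on the x axis. In the 8 members other than Dhcr7 a triangle lies between 12 and 62 bases before the start, and for Dhcr7 triangles are seen only at the start numbered 3.

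Slc40a1 was examined first, since its deletion defines the groups. Its level, in CPM (reads per 1000000 reads of the library, with library sizes scaled by the TMM method), was 154, 180 and 126 for LT replicates 1 to 3, against 143, 143 and 176 for the libraries with the Fpn-LKO label. The groups overlapped at a log2 fold change of 0.0073 (SE, the standard error, 0.16), and the adjusted p was 0.995. Adjusted p-values are those of the quasi-likelihood test of edgeR, corrected over all genes by the Benjamini-Hochberg method, unless another test is named. The table gives 1 count over the whole gene, the transcript level does not separate the genotypes, and all directions below therefore rest on the labels. Library totals ranged from 43086184 to 47778683 reads. The hepatocyte markers (6 of 6 found) summed to 59279 to 72366 CPM in LT and 62057 to 68844 CPM in Fpn-LKO. Summed markers of the other cells a liver sample can hold also overlapped between the groups, with 245 to 336 against 197 to 432 CPM for 6 Kupffer cell genes, 244 to 299.5 against 233 to 249 CPM for 5 endothelial genes, 354 to 424 against 382 to 405 CPM for 5 stellate cell genes, and 59.1 to 97.3 against 93.0 to 119.7 CPM for 3 genes of blood cells. The 4 cholangiocyte genes summed to at most 2.23 CPM and the 3 lymphocyte genes to at most 0.739 CPM, while 3 of 3 adipocyte and 5 of 5 pancreatic genes had 0 reads in every library. In whole liver, fewer cells of a type and less RNA per cell cannot be told apart.

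The question was at which steps of the sterol sequence the transcript level differed between the genotypes. Relative to LT, 8 of the 9 members had a lower mean in Fpn-LKO. None of the 9 passed the adjusted threshold of 0.05, which 0.0232% of all genes did. At an unadjusted p below 0.05, 4 of the 9 (Msmo1, Lss, Cyp51 and Nsdhl) were lower, against 2.19% of all genes tested, and 0 of the 9 were higher, against 2.62%. In 3 of the 9 every Fpn-LKO library lay below every LT library, against 5.34% of all genes, and in 0 of the 9 every Fpn-LKO library lay above, against 5.25%. Because the members were chosen with earlier results of these data known, these shares are a description and not a test of the set. The median log2 fold change of the members was -0.31, and that of all genes was -0.0040. The 6 genes from Lss to Hsd17b7 had log2 fold changes between -1.05 and -0.26 with a median of -0.55. The 3 genes from Ebp to Dhcr7 had values between -0.19 and 0.17. This cut was not planned and was placed with the values known. Tm7sf2 at -0.26 and Hsd17b7 at -0.31 lay close to Dhcr7 at -0.19, and the difference between these sets of steps was not tested. The count of 4 at an unadjusted p below 0.05 became 2 without LT replicate 2, LT replicate 3 or Fpn-LKO replicate 2. The count of 3 without overlap became 5 without Fpn-LKO replicate 1. With fewer libraries, groups lie apart more often, and the shares over all genes were not computed for these counts.

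**Figure D2:**
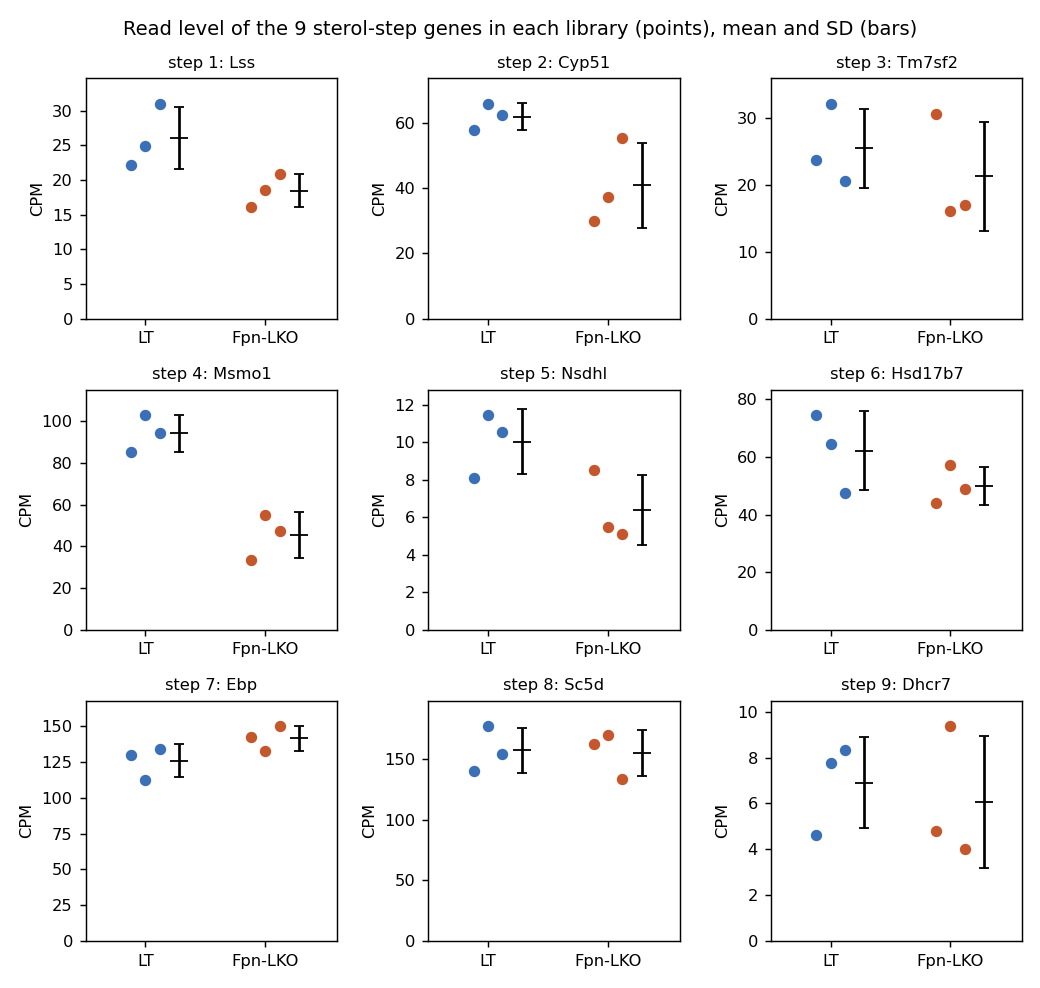
CPM (y axis, from 0) of the 9 members in each of the 3 LT (blue) and 3 Fpn-LKO (orange) libraries, with black bars for the mean and SD of each group and the panels in the order of the steps. The Msmo1 points of Fpn-LKO lie between 33.5 and 55.3 CPM and those of LT between 85.5 and 103 CPM, whereas the points of Ebp, Sc5d and Dhcr7 overlap.

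The sequence opens with Lss, lanosterol synthase, on chromosome 10 of GRCm38 from 76531565 to 76557139. It had 22.2, 24.9 and 31.0 CPM in LT against 16.1, 18.5 and 20.8 CPM in Fpn-LKO. Each LT library was above each Fpn-LKO library, and averages were 26.0 ± 4.48 and 18.5 ± 2.35 CPM (SD, n = 3 each), 28.9% lower in Fpn-LKO. On the log2 scale the difference was -0.49 (SE 0.16, 95% confidence interval -0.87 to -0.12), with an unadjusted p of 0.0170 and an adjusted p of 0.982 by the edgeR test. A two-sided exact permutation test of the log2 CPM gave p = 0.1, the smallest value that 3 against 3 mice can give. The unadjusted edgeR p was 0.0587 without LT replicate 3, 0.0583 without Fpn-LKO replicate 1 and, by limma on log2(TPM + 1), 0.0684.

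Cyp51, the P450 that demethylates lanosterol, lies on chromosome 5 from 4080674 to 4104697. Its level was 57.8, 65.8 and 62.5 CPM in LT against 30.0, 37.4 and 55.4 CPM in Fpn-LKO. Again no Fpn-LKO library reached the lowest LT library, although Fpn-LKO replicate 3 came close to it. The spread was wider in Fpn-LKO, with 40.9 ± 13.1 CPM against 62.0 ± 4.03 CPM in LT (SD, n = 3 each), and the mean was 34.0% lower. The log2 fold change of -0.60 (SE 0.22, 95% confidence interval -1.10 to -0.098) had an unadjusted p of 0.0252 and an adjusted p of 0.982 by the edgeR test. Leaving out LT replicate 2, LT replicate 3, Fpn-LKO replicate 1 or Fpn-LKO replicate 2 gave an unadjusted p between 0.0563 and 0.0798, and leaving out Fpn-LKO replicate 3 gave 0.000697. Among GENCODE transcripts, Cyp51 and Akap9 share a stretch of 166 bases on opposite strands. The RefSeq gene coordinates used here list no overlap for Cyp51. Akap9 had 111, 117 and 119 CPM in LT against 96.4, 99.4 and 99.1 CPM in Fpn-LKO, and whether reads of the shared stretch were split by strand is not given in the sources used here.

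Tm7sf2, a sterol reductase of the endoplasmic reticulum that acts on the product of Cyp51 and shares this reaction with the lamin B receptor Lbr, lies on chromosome 19 from 6062821 to 6067850. It had 23.8, 32.1 and 20.6 CPM in LT against 30.7, 16.1 and 17.1 CPM in Fpn-LKO. Fpn-LKO replicate 1 lay in the range of LT and the other 2 Fpn-LKO libraries below it, so the groups overlapped. The difference of -0.26 on the log2 scale (SE 0.28, 95% confidence interval -0.91 to 0.39) had an adjusted p of 0.991 by the edgeR test. It rested on single libraries, with -0.055 without LT replicate 2 and -0.62 without Fpn-LKO replicate 1, where the unadjusted p was 0.0222.

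Msmo1, the methylsterol monooxygenase that oxidises the methyl groups next to the hydroxyl group of the ring, showed the largest difference of the 9. The gene is on chromosome 8 from 64718123 to 64733578. Its level was 85.5, 103 and 94.4 CPM in LT against 33.5, 55.3 and 47.6 CPM in Fpn-LKO. The highest Fpn-LKO library lay well below the lowest LT library. Averages were 94.3 ± 8.73 and 45.4 ± 11.1 CPM (SD, n = 3 each), 51.8% lower in Fpn-LKO. These values rest on 3907 to 4459 reads per LT library and 1596 to 2582 reads per Fpn-LKO library, so counting error was small beside the difference. This is a log2 fold change of -1.05 (SE 0.19, 95% confidence interval -1.49 to -0.61, or 0.355 to 0.654 of the LT level). Its unadjusted p of 0.000662 ranked 25th among all genes tested, and the adjusted p was 0.452 by the edgeR test. The call depended on the test, since the adjusted p for Msmo1 was 0.000564 with DESeq2 and 0.00206 with edgeR's exactTest, which the study's methods name. Among the 9, Msmo1 was thus the only member called by these tests, which called 0.133% and 0.11% of all genes as lower. Leaving out any 1 library left the log2 fold change between -1.22 and -0.87 and the unadjusted p at 0.00372 or less.

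Nsdhl, the dehydrogenase that removes the oxidised carbon as carbon dioxide, is on chromosome X from 72918521 to 72958528. It was a gene of low level, with 8.07, 11.4 and 10.6 CPM in LT against 8.51, 5.48 and 5.11 CPM in Fpn-LKO. Fpn-LKO replicate 1 exceeded LT replicate 1, and the other Fpn-LKO libraries were below all of LT. Averages were 10.02 ± 1.74 and 6.37 ± 1.87 CPM (SD, n = 3 each). This gave a log2 fold change of -0.65 (SE 0.24, 95% confidence interval -1.22 to -0.087, unadjusted p = 0.0290, adjusted p = 0.982 by the edgeR test). The unadjusted p was 0.00378 without Fpn-LKO replicate 1, and between 0.0710 and 0.0952 without LT replicate 2, LT replicate 3, Fpn-LKO replicate 2 or Fpn-LKO replicate 3.

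Hsd17b7, which reduces the ketone left by Nsdhl and so ends each round of demethylation, is on chromosome 1 from 169949535 to 169969242. It had 74.5, 64.4 and 47.3 CPM in LT against 44.2, 57.0 and 48.8 CPM in Fpn-LKO. The LT libraries were spread over a wider range than the Fpn-LKO libraries, and LT replicate 3 lay among the Fpn-LKO values. The log2 fold change of -0.31 (SE 0.18, 95% confidence interval -0.74 to 0.11) had an adjusted p of 0.982 by the edgeR test. It was -0.16 without LT replicate 1 and -0.47 without LT replicate 3, where the unadjusted p was 0.0169.

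Ebp, the isomerase that shifts the double bond within the ring system, was the single member with a higher mean in Fpn-LKO. Located on chromosome X from 8185329 to 8193512, it had 130.3, 112.8 and 134.4 CPM in LT against 142.2, 132.4 and 149.9 CPM in Fpn-LKO. The groups overlapped by 1 library on each side, at 125.8 ± 11.5 and 141.5 ± 8.76 CPM (SD, n = 3 each). The log2 fold change of 0.17 (SE 0.12) had a 95% confidence interval from -0.10 to 0.44, which excludes a decrease of the size seen for Lss, Cyp51, Msmo1 or Nsdhl, and the adjusted p was 0.982 by the edgeR test.

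Sc5d, the iron-dependent desaturase that adds a double bond to lathosterol, is on chromosome 9 from 42251592 to 42264300. It had 140, 177 and 154 CPM in LT against 162, 170 and 134 CPM in Fpn-LKO. The libraries of the genotypes were interleaved, with 157 ± 18.5 and 155 ± 18.9 CPM (SD, n = 3 each). The log2 fold change was -0.017 (SE 0.14, 95% confidence interval -0.35 to 0.31, adjusted p = 0.995 by the edgeR test), and its sign turned on the TPM scale and when LT replicate 2 or Fpn-LKO replicate 3 was left out. Side by side, the log2 fold changes of the 3 iron-using members were -0.60 for Cyp51, -1.05 for Msmo1 and -0.017 for Sc5d, and the differences between them were not tested.

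Dhcr7, the reductase that turns the product of Sc5d into cholesterol by reducing the other double bond of its ring, is on chromosome 7 from 143823167 to 143848410. It was the lowest of the 9 in reads, with 186 to 437 per library, and had 4.64, 7.76 and 8.34 CPM in LT against 4.80, 9.36 and 4.01 CPM in Fpn-LKO. The widest gap between any pair of libraries was within Fpn-LKO. Their coefficient of variation was 28.8% in LT and 47.7% in Fpn-LKO, whereas counting alone would give 5.74% and 5.93%. The log2 fold change of -0.19 (SE 0.37) had a 95% confidence interval from -1.04 to 0.66 and an adjusted p of 0.995 by the edgeR test. It lay between -0.65 without Fpn-LKO replicate 2 and 0.039 without Fpn-LKO replicate 3.

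**Figure D3:**
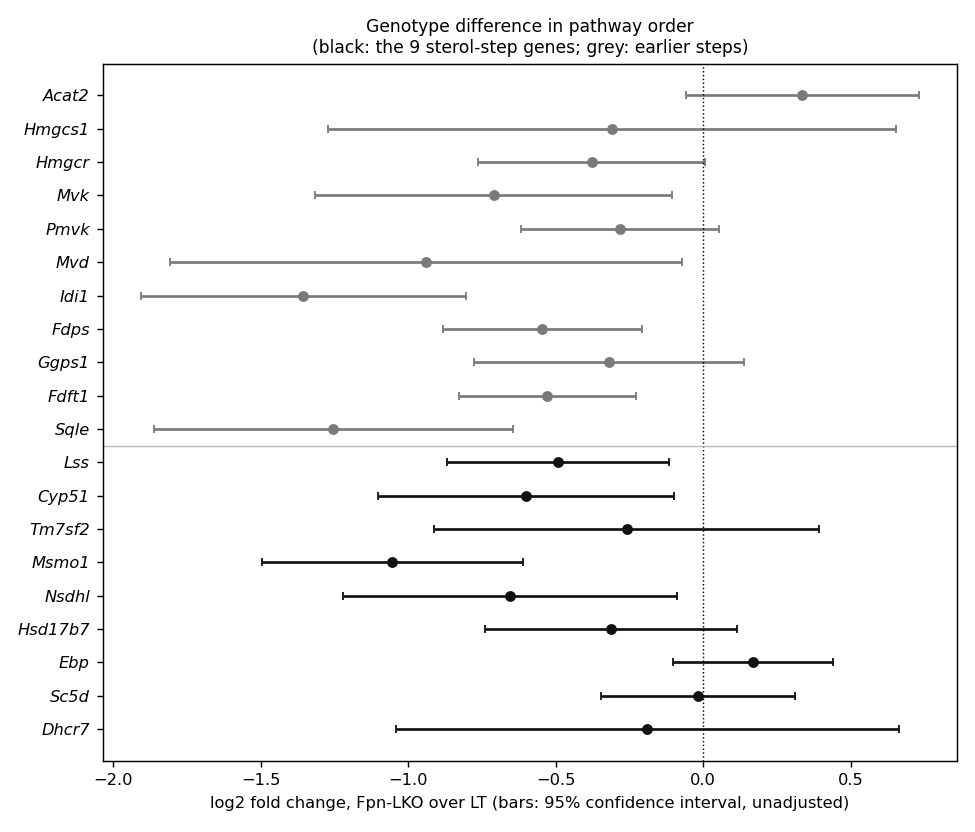
Log2 fold change of Fpn-LKO over LT (x axis, bars show the unadjusted 95% confidence interval) for the genes of cholesterol synthesis from top to bottom in pathway order, with the 9 members in black and the 11 earlier genes in grey above them. The points from Mvk to Hsd17b7 lie left of 0 and the point of Ebp lies to the right, with the points of Sc5d and Dhcr7 at -0.017 and -0.19.

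Library by library, the members did not move as a block. Set against the mean of LT, the median difference over the 9 members was -0.14, 0.13 and 0.013 on the log2 scale for LT replicates 1 to 3. It was -0.47, -0.48 and -0.32 for Fpn-LKO replicates 1 to 3. All 3 Fpn-LKO medians were thus below all 3 LT medians, but different members were lowest in different mice. Fpn-LKO replicate 1 held the lowest value of 4 members (Lss, Cyp51, Msmo1 and Hsd17b7), at -1.49 for Msmo1 and -1.04 for Cyp51, and yet had Tm7sf2 at 0.29 and Nsdhl at -0.22. Fpn-LKO replicate 3 held the lowest value of 3 members (Nsdhl, Sc5d and Dhcr7), and Fpn-LKO replicate 2 that of Tm7sf2. LT replicate 2 had the highest value of 5 members and the lowest of Ebp.

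**Figure D4:**
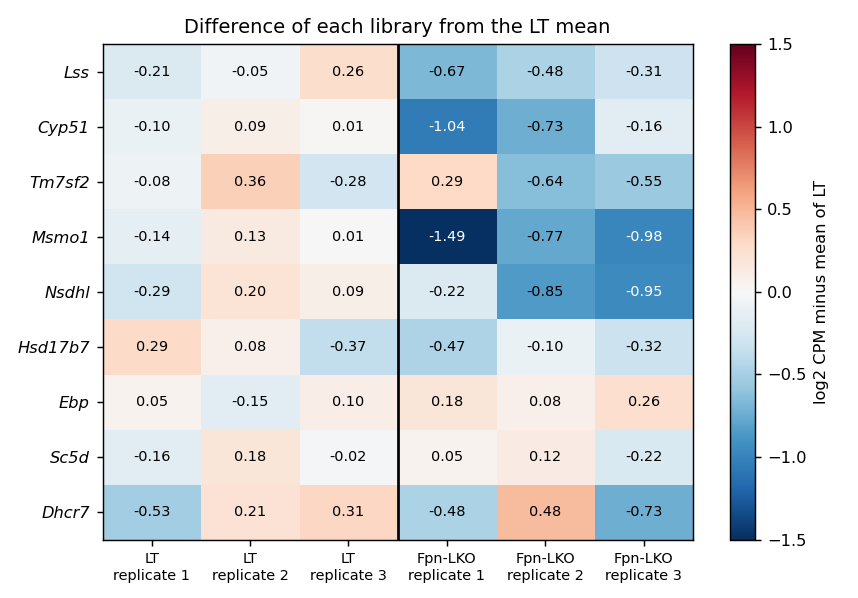
Log2 CPM of the 9 members in each library minus the mean of LT, with the 3 LT libraries left of the black line, blue for lower and red for higher. Msmo1 is at -1.49, -0.77 and -0.98 in the Fpn-LKO libraries, Nsdhl is at -0.22, -0.85 and -0.95, and Cyp51 at -1.04, -0.73 and -0.16.

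The same was seen in the correlation of each member with the mean log2 CPM of the other 8 over the 6 libraries, given as a description since all values share libraries and scaling. Msmo1 followed the others most closely, with a Pearson r of 0.88. Lss had 0.75, Nsdhl 0.70 and Cyp51 0.60, whereas Hsd17b7, Dhcr7, Sc5d and Tm7sf2 had between 0.21 and 0.37. Ebp ran opposite to the rest, with an r of -0.86. Because Ebp and Msmo1 were read in the same libraries, their ratio does not depend on scaling between libraries. There were 0.656, 0.913 and 0.703 reads of Msmo1 per read of Ebp in LT and 0.235, 0.418 and 0.317 in Fpn-LKO, with means of 0.757 ± 0.137 and 0.323 ± 0.0913 (SD, n = 3 each) and no overlap (two-sided exact permutation test, p = 0.1, the smallest possible). The ratios of Cyp51 to Ebp (0.444, 0.584 and 0.465 against 0.211, 0.282 and 0.370) and of Lss to Ebp (0.170, 0.221 and 0.230 against 0.114, 0.140 and 0.139) were also separate. The ratio of Sc5d to Ebp overlapped, with means of 1.26 ± 0.266 and 1.10 ± 0.197 (SD, n = 3 each, two-sided exact permutation p = 0.5). Ebp was taken as the reference after its values were seen, and its own higher mean contributes to these ratios.

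Among genes outside the pathway, those most like the mean of the members over the 6 libraries were Rbm26 (Pearson r = 0.995), Il1rap (0.979), Per3 (0.975), Brd1 (0.974) and Chd8 (0.973), out of 6821 genes with a mean of at least 10 CPM. These r values are the highest of all those ranked and rest on 6 points. Of these, Per3, a gene of the circadian clock, had 35.2, 38.1 and 37.4 CPM in LT against 25.2, 27.7 and 23.9 CPM in Fpn-LKO, a log2 fold change of -0.53 (adjusted p = 0.570 by the edgeR test), and the other 4 had log2 fold changes between -0.26 and -0.083.

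Levels can be set between genes only per transcript length, for which the deposited TPM (scaled to the same total in every library) were used. In LT the order was Ebp, Msmo1, Sc5d, Tm7sf2, Cyp51, Hsd17b7, Nsdhl, Lss and Dhcr7, from 91.5 ± 12.3 TPM for Ebp to 3.27 ± 0.585 TPM for Dhcr7 (SD, n = 3 each), a ratio of 27.96. The ranges of neighbours in LT did not overlap between Ebp and Msmo1, between Sc5d and Tm7sf2, between Hsd17b7 and Nsdhl, or between Lss and Dhcr7. Between Msmo1 and Sc5d, Tm7sf2 and Cyp51, Cyp51 and Hsd17b7, and Nsdhl and Lss, the neighbours did not differ beyond their spread. Msmo1 was thus at 64.6 ± 5.58 TPM beside Sc5d at 55.9 ± 15.03 TPM in LT, and at 33.8 ± 11.2 TPM against 60.1 ± 20.6 TPM in Fpn-LKO (SD, n = 3 each), where the ranges of these genes again overlapped. Ebp was the highest in both genotypes, and Nsdhl, Lss and Dhcr7 were the lowest 3. On the TPM scale the genotypes were separate for Lss (5.22, 5.15 and 5.76 against 3.53, 4.51 and 4.39 TPM), Msmo1 and Nsdhl (5.11, 6.45 and 5.46 against 4.74, 3.69 and 3.03 TPM), and overlapped for Cyp51, whose Fpn-LKO replicate 3 had 16.8 TPM against 16.5 TPM in LT replicate 3. In FPKM, scaled to length and library size, the separate genes were Lss, Cyp51, Msmo1 and, in the higher direction, Ebp, with 65.4, 55.9 and 62.9 FPKM in LT and 71.4, 65.5 and 72.3 FPKM in Fpn-LKO.

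**Figure D5:**
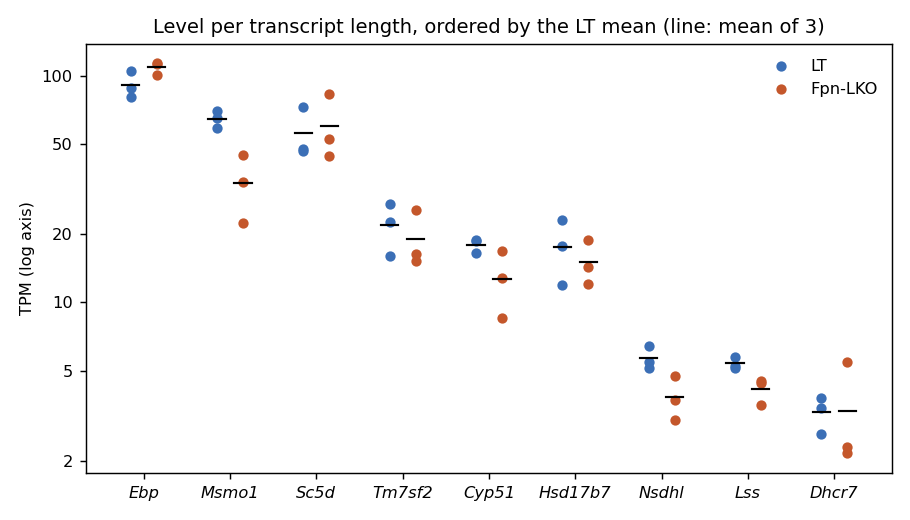
TPM of the 9 members on a log axis, ordered by their mean in LT, with a point for each of the 3 LT (blue) and 3 Fpn-LKO (orange) libraries and a line at each mean. Ebp is highest, with means of 91.5 and 109.5 TPM, and Dhcr7 lowest, with means of 3.27 and 3.31 TPM, and the points of Msmo1 are separate between the genotypes.

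The genes that lead to lanosterol were compared to place the members in the whole pathway, and this list too was chosen with earlier results known. Of these 11 genes, 0 passed the adjusted threshold and 10 had a lower mean in Fpn-LKO, with a median log2 fold change of -0.53 and a range from -1.35 to 0.34. At an unadjusted p below 0.05, 6 of the 11 were lower and 0 higher, against 2.19% and 2.62% of all genes, and in 7 the Fpn-LKO libraries all lay below LT, against 5.34% of all genes. Idi1, which isomerises the isoprenoid unit, had 30.8, 45.4 and 35.1 CPM in LT against 10.1, 15.7 and 17.7 CPM in Fpn-LKO (log2 fold change -1.35, SE 0.24, adjusted p = 0.408 by the edgeR test). Sqle, the squalene epoxidase that makes the substrate of Lss, had 12.3, 20.2 and 12.5 CPM in LT against 5.03, 5.80 and 7.995 CPM in Fpn-LKO (-1.25, SE 0.26, adjusted p = 0.590 by the edgeR test). Both values were further from 0 than that of Msmo1. Fdft1, squalene synthase, had 60.3, 54.7 and 46.0 CPM in LT against 36.4, 39.8 and 35.4 CPM in Fpn-LKO (-0.53, SE 0.13, adjusted p = 0.747 by the edgeR test). With DESeq2 and with exactTest, Idi1 and Sqle passed the adjusted threshold, at -1.35 and -1.25 for Idi1 and Sqle with both tools.

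The partners of the sterol steps were 9 genes for enzymes that share or assist these reactions. None passed the adjusted threshold, which 0.0232% of all genes did. At an unadjusted p below 0.05, 0 were lower and 0 higher, against 2.19% and 2.62% of all genes. The genotypes were separate for 0 of the 9, against 5.34% of all genes as lower and 5.25% as higher. For 9 genes, counts of 0 are near these shares. The median log2 fold change was -0.016, with a range from -0.33 to 0.25. The smallest p-values of the group belonged to Cyb5r3, which passes electrons to cytochrome b5 (0.25), to Por, the reductase that feeds Cyp51 and other P450 enzymes (-0.33), and to Lbr (-0.25), all as log2 fold changes with an adjusted p of 0.982 by the edgeR test.

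Of 10 genes that sense sterol or act on its uptake and transport, 0 passed the adjusted threshold, 2 were lower and 1 higher at an unadjusted p below 0.05 (2.19% and 2.62% of all genes), and the median log2 fold change was -0.10. Insig1, which holds SREBP in the endoplasmic reticulum and is itself an SREBP target, had 137, 125 and 158 CPM in LT against 83.0, 81.3 and 83.0 CPM in Fpn-LKO. The Fpn-LKO libraries were close to each other and far below LT, with a log2 fold change of -0.76 (SE 0.12, adjusted p = 0.382 by the edgeR test, 0.000146 by DESeq2 and 0.00534 by exactTest). Mbtps2, a protease that releases SREBP from the membrane, was at 5.34, 5.06 and 4.83 CPM in LT against 7.09, 9.15 and 7.54 CPM in Fpn-LKO (0.64, adjusted p = 0.834 by the edgeR test). Stard4, a carrier of cholesterol, was at 44.9, 39.5 and 44.5 CPM in LT against 30.1, 34.1 and 38.0 CPM in Fpn-LKO (log2 fold change -0.33, adjusted p = 0.982 by the edgeR test). Srebf2 itself overlapped, with 7.25, 9.47 and 6.72 CPM in LT against 5.51, 11.1 and 6.27 CPM in Fpn-LKO (log2 fold change -0.035).

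Downstream of cholesterol, 8 genes of its esterification, export and conversion to bile acids were measured. None passed the adjusted threshold, 1 was lower and 1 higher at an unadjusted p below 0.05 (2.19% and 2.62% of all genes), and the median log2 fold change was 0.013. Cyp7a1, the rate-limiting enzyme of bile acid synthesis, varied widely between mice, with 357, 163 and 343 CPM in LT against 79.3, 192 and 50.4 CPM in Fpn-LKO. Fpn-LKO replicate 2 exceeded LT replicate 2, and the log2 fold change was -1.42 (SE 0.51, adjusted p = 0.982 by the edgeR test). Nr1h3, the liver X receptor alpha, a nuclear receptor for oxysterols, had 76.2, 72.7 and 69.8 CPM in LT against 85.1, 85.9 and 86.7 CPM in Fpn-LKO, without overlap (0.24, SE 0.095, adjusted p = 0.982 by the edgeR test). Soat2, which esterifies cholesterol, had a log2 fold change of -0.19. The count of 2 for this group at an unadjusted p below 0.05 became 1 or 0 whenever a library was left out.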

How the data were processed

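Libraries of liver RNA were prepared and sequenced by the authors as paired reads of 100 bp, per the methods with rRNA removal from 0.5 µg of total RNA and per the labels with an mRNA kit from 1 µg. Alignment by the authors was to mm10, and they deposited unnormalized read counts of each gene beside FPKM (per length and library size) and TPM. The submitters' processing notes list HISAT2 2.1.0, Bowtie2 2.3.4.1, StringTie 2.1.3b, FastQC 0.11.7 and bcl2fastq 2.20.0 without saying how each was used. The strand setting of the counting is not given in the sources used here, so reads of genes that overlap on opposite strands may be shared.

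Groups and replicate numbers were taken from the sample labels. The counts were used as deposited, at most 1 library with 0 reads was allowed per gene, and the 17274 genes left were tested by edgeR 4.0.16 (R 4.3.3; TMM, glmQLFit without robust estimation, glmQLFTest) with Benjamini-Hochberg adjustment over all of them, in place of the exactTest named in the study's methods. Standard errors were derived from the F statistic. Single values and ratios were also compared, on the log2 scale, by two-sided exact permutation tests over libraries (scipy 1.17.1). The p-values measure the spread between these 6 libraries. Alternatives were RLE size factors, all genes with at least 1 read, filterByExpr, DESeq2 1.42.0 (Wald test without independent filtering), exactTest, limma 3.58.1 on TPM with a pseudocount of 1 or of 0.1 before log2 (mean TPM 1 or more), the replicate number as a block, and leaving out each library in turn. The code was checked on simulated counts. Similar transcripts were searched with blastn 2.17.0 in GENCODE transcripts, and promoter sequences and coordinates came from RefSeq tables of GRCm38, in which 45679 gene identifiers were found.

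The members and the gene lists were chosen with earlier results of these data known. Genes named were the 9 members, Slc40a1, Srebf2, Insig1, up to 3 genes with the smallest p in each list, and the 5 genes most like the members' mean. A pair of further genes that the rule names are not reported here. Akap9 was named after its values were seen because its transcripts share bases with those of a member. Totals of 43086184 to 47778683 reads per library gave members a counting coefficient of variation between 1.17% and 5.93%, and the common biological coefficient of variation over all genes was 0.275.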

Additional observations from a re-analysis of the deposited data

How the results depend on the processing

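Msmo1 stayed negative under every alternative run. Members past the adjusted threshold numbered 0, but 1 (Msmo1, -1.05 with both) with DESeq2 and with exactTest, tests that called 72 and 63 genes in all against 4. Among the earlier genes 2 were called by DESeq2 and by exactTest (Idi1 -1.35, Sqle -1.25) and among the sensing genes 1 (Insig1, -0.76). On log2(TPM + 1), where the median of all genes was 0.083, the members' median was -0.20 and that of the earlier genes -0.30 (-0.34 on log2(TPM + 0.1)), and Sc5d turned to 0.084 and 0.085. Genes of cholesterol use past an unadjusted p of 0.05 fell from 2 to 1 with all genes, exactTest, both TPM scales and the replicate block.

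Leaving out 1 library at a time gave 2 to 4 members lower at an unadjusted p below 0.05, 3 to 5 members lower and 0 to 1 higher without overlap, and a members' median of -0.49 to -0.28. Groups of fewer libraries lie apart more often, and shares over all genes were not computed for these counts. Sc5d ranged from -0.093 to 0.081, turning to 0.081 without LT replicate 2 and 0.080 without Fpn-LKO replicate 3. Dhcr7 ranged from -0.65 to 0.039, turning without Fpn-LKO replicate 3. Slc40a1 ranged from -0.11 to 0.14, at -0.11 without LT replicate 3 and -0.096 without Fpn-LKO replicate 3. The counts ranged from 0 to 1 for partners and 0 to 1 for cholesterol use, and the medians from -0.15 to 0.049 for partners and -0.26 to 0.037 for sensing genes. The cause of these changes was not tested. Other values, 390 in all, kept their direction and their side of the threshold or moved by less than the limit.

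Replicate numbers were carried by different mice. Correlations of same-numbered libraries were 0.13, -0.0095 and 0.045, and those of differently numbered libraries lay between -0.098 and 0.061. With 3 libraries per group these values cannot decide whether the numbers mark a pairing. With the replicate block 0 members and 0 of all genes passed the adjusted threshold (Msmo1 -1.08, adjusted p = 0.452 by edgeR). A difference of low-count members such as Dhcr7 is limited by the spread between 3 mice, not by depth.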
